A study of Mus musculus with 10 samples.

Results

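The genes described here encode the proteins of the mitochondrial ribosome. They were taken as the rows of the gene table whose transcript accessions map to 1 symbol beginning with Mrpl (large subunit) or Mrps (small subunit) and whose mean over the 10 libraries is at least 1. This gave 75 genes, 48 of the large and 27 of the small subunit, among the 14611 genes that passed the same minimum and were tested, out of 24160 rows in all. Every row that met the name rule also met the minimum, so no member was lost to it. A further 3 rows join a symbol of the family with that of another gene (Mrps23 with Cuedc1 and 2210416O15Rik, Mrpl53 with Ccdc142, Mrps6 with Slc5a3) and were not counted as members. The study measured polyadenylated RNA from the posterior wall of the left ventricle in mice without the melanocortin 4 receptor (MC4R-/-, 6 libraries) and in wild type mice (WT, 4 libraries). Both genotypes are C57BL6/J mice bred from heterozygous pairs, kept at 24 °C and aged 30 weeks, and the labels name no other allele or agent in either. Whether each library comes from a different mouse is not stated in the labels, and the p-values therefore reflect the variation among these libraries, which may be technical. In whole tissue, fewer cells of a type and less RNA per cell cannot be told apart.

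Mitochondria carry their own ribosome, which makes the few respiratory chain proteins encoded in mitochondrial DNA. Its RNAs come from that DNA, while all of its proteins are encoded in the nucleus, made in the cytosol and imported. Some of the proteins have relatives in bacterial ribosomes, and others are found only in mitochondria. The heart depends on mitochondrial respiration, and inherited defects in MRPL3, MRPL44, MRPS14 and MRPS22 are known causes of infantile cardiomyopathy.

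The nuclear factors GABPA (NRF-2, an ETS family protein), NRF1 and YY1 are known regulators of genes for mitochondrial proteins, so the promoters of the members were searched for their motifs. A RefSeq promoter window of 300 bases, from 250 before to 50 after the transcription start (build GRCm38.p6), was matched for 66 of the 75 members. The motifs were CCGGAAG (ETS), GCGCATGCG (NRF1) and AAGATGGCG (YY1), searched on both strands, and none of the motifs contains another. The ETS motif stood in 34.8% of the member windows (23 of 66), in 17.2% of the windows of 10841 tested protein-coding genes and in 8.86% of all 32851 windows of the table. The NRF1 motif stood in 10.6%, 3.47% and 1.75% of the same sets, and the YY1 motif in 12.1%, 2.97% and 1.4%. Of the 14611 genes tested, 6761 had a mean at least that of the lowest member, and no search was limited to these. In the large subunit 33.3% of 42 windows held the ETS motif, 14.3% the NRF1 motif and 9.52% the YY1 motif. In the small subunit these shares were 37.5%, 4.17% and 16.7% of 24 windows, where 4.17% is 1 window. A match is a description of the letters and not a shown site of binding, and 33 of the 66 windows held none of the motifs. Median GC content of the member windows was 57.8%, against 60.7% for the tested genes.

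The 100 bases before the start are shown first for the 3 members of each subunit with the smallest unadjusted p between genotypes, except Mrps34. None of these genes passed the adjusted test given below, and the rank only sets which are shown. Capitals mark a motif, and all sequences are from RefSeq, 5′ to 3′ on the strand of the gene.
Mrpl48: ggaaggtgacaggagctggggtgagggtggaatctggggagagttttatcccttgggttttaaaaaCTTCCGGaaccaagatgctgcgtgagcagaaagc
Mrpl24: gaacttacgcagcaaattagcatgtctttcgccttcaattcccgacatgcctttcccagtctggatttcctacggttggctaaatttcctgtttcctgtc
Mrpl23: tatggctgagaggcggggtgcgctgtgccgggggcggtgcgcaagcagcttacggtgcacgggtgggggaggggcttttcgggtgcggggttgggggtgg
Mrps31: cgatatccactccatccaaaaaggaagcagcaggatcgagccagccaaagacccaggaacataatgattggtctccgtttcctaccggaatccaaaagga
Mrps15: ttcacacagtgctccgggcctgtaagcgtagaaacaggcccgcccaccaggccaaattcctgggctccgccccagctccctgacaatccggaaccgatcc
They lie at chr7:100583131-100583230 (minus strand) for Mrpl48, chr3:87919444-87919543 (plus) for Mrpl24, chr7:142532932-142533031 (plus) for Mrpl23, chr8:22411240-22411339 (plus) for Mrps31 and chr4:126046828-126046927 (plus) for Mrps15. The Mrpl48 window belongs to the start of its coding transcript, inside the span of the gene. Its ETS motif begins at position -34 from the start, in reverse orientation, and the stretches shown for the other 4 genes hold no motif of the search.

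The next set shows how motifs are placed in members that hold them. These genes were picked after the motif search, and Mrps22 because of its place in human cardiomyopathy.
Mrpl22: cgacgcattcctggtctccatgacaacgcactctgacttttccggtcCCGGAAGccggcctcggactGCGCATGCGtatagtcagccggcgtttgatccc
Mrpl32: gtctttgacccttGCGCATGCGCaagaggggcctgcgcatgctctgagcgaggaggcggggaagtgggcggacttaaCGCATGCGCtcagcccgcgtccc
Mrpl43: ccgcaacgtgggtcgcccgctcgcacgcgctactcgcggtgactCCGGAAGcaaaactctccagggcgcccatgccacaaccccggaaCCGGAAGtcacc
Mrps22: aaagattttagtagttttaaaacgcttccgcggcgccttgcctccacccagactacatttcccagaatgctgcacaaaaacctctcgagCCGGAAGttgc
Mrps26: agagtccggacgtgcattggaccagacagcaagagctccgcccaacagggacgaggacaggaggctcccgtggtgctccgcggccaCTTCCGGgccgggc
They lie at chr11:58171564-58171663 (plus) for Mrpl22, chr13:14613038-14613137 (minus) for Mrpl32, chr19:45006443-45006542 (minus) for Mrpl43, chr9:98601680-98601779 (minus) for Mrps22 and chr2:130563657-130563756 (plus) for Mrps26. Mrpl22 holds an ETS motif at -53 and an NRF1 motif at -33. Mrpl32 holds the NRF1 motif at 2 places, and at the first of them the letters read the same on both strands. Mrpl43 holds a pair of ETS motifs, and single ETS motifs begin at -11 in Mrps22 and at -14 in Mrps26.

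Members often sit head to head with another gene. A protein-coding neighbour on the opposite strand whose annotated span ends upstream, within 1000 bases of the member's start, was found for 25.3% of the members (19 of 75), against 10.5% of the tested protein-coding genes. The tested genes here too include many at lower levels than any member. Mrpl46 and Mrps11, 1 gene of each subunit, start 30 bases apart in opposite directions. Of this pair only Mrpl46 is in the count, since a longer transcript of Mrpl46 makes its span overlap the start of Mrps11. Mrpl32 starts 75 bases from Psma2, a proteasome subunit gene, and Mrps12 starts 172 bases from Sars2, the gene of the mitochondrial seryl-tRNA synthetase. The 75 members lie on 17 chromosomes, with the most on chromosome 11 (10 genes) and chromosome 17 (8 genes).

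The libraries held 4145033 to 6425785 reads assigned to genes, and the members had a mean of 114.9 to 1667.8 reads per library each. Mc4r itself had 4 reads over the 6 MC4R-/- libraries and 2 over the 4 WT libraries, so its level cannot check the genotype labels at this depth. The ventricular markers Myh6, Myl2, Myl3, Tnnt2, Tnni3, Actc1, Pln and Ryr2 were high in every library, and 0 of these 8 genes were called by limma, edgeR or DESeq2 (0 at an unadjusted limma p under 0.05). WT replicate 2 stood apart in lymphocyte transcripts, with a summed normalized count of 478.4 over 6 markers against 11.3 to 42.3 in the other libraries. MC4R-/- replicate 5 stood apart in atrial transcripts, with a sum of 3155 over 4 markers against 504 to 1338 elsewhere. Counts and medians of gene groups are also given without both libraries.

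No gene of either subunit was called different between the genotypes. By limma with Benjamini-Hochberg adjustment over all 14611 genes, 0 of 48 large and 0 of 27 small subunit genes passed an adjusted p of 0.05, while 67 of all genes tested did (0.459%, with 0.287% higher and 0.171% lower in MC4R-/-). edgeR and DESeq2 on the recovered reads also called 0 members, against 0.342% and 0.808% of all genes tested. At an unadjusted p under 0.05 limma counted 2 of the 48 large subunit genes and 0 of the 27 small, against 9.6% of all genes tested. At the background rate fewer than 1 call would fall among 75 genes, so the count of 0 alone says little about the family. The 95% interval of the log2 fold change lay inside a 1.3-fold change in either direction for 46 of 48 large and 26 of 27 small subunit genes, and inside 1.5-fold for all 75.

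Large and small subunit genes were centred close to 0. The median log2 fold change (MC4R-/- over WT, on the log2(normalized count + 1) scale) was 0.03 in the large subunit, 0.03 in the small subunit and -0.01 over all genes tested. Values above 0 were found for 27 of 48 large (56.2%) and 20 of 27 small subunit genes (74.1%), against 48.4% of all genes tested. Over 24 alternatives these counts ran from 25 to 34 and from 15 to 22, and the medians from 0.0066 to 0.06 and from 0.02 to 0.06. Without WT replicate 2 and MC4R-/- replicate 5 the counts were 33 and 21, and the medians 0.06 and 0.06. The median size of the log2 fold change, regardless of sign, was 0.06 in both subunits. Over the 6761 tested genes whose mean is at least that of the lowest member it was 0.08, and over all genes tested 0.12.

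**Figure D1:**
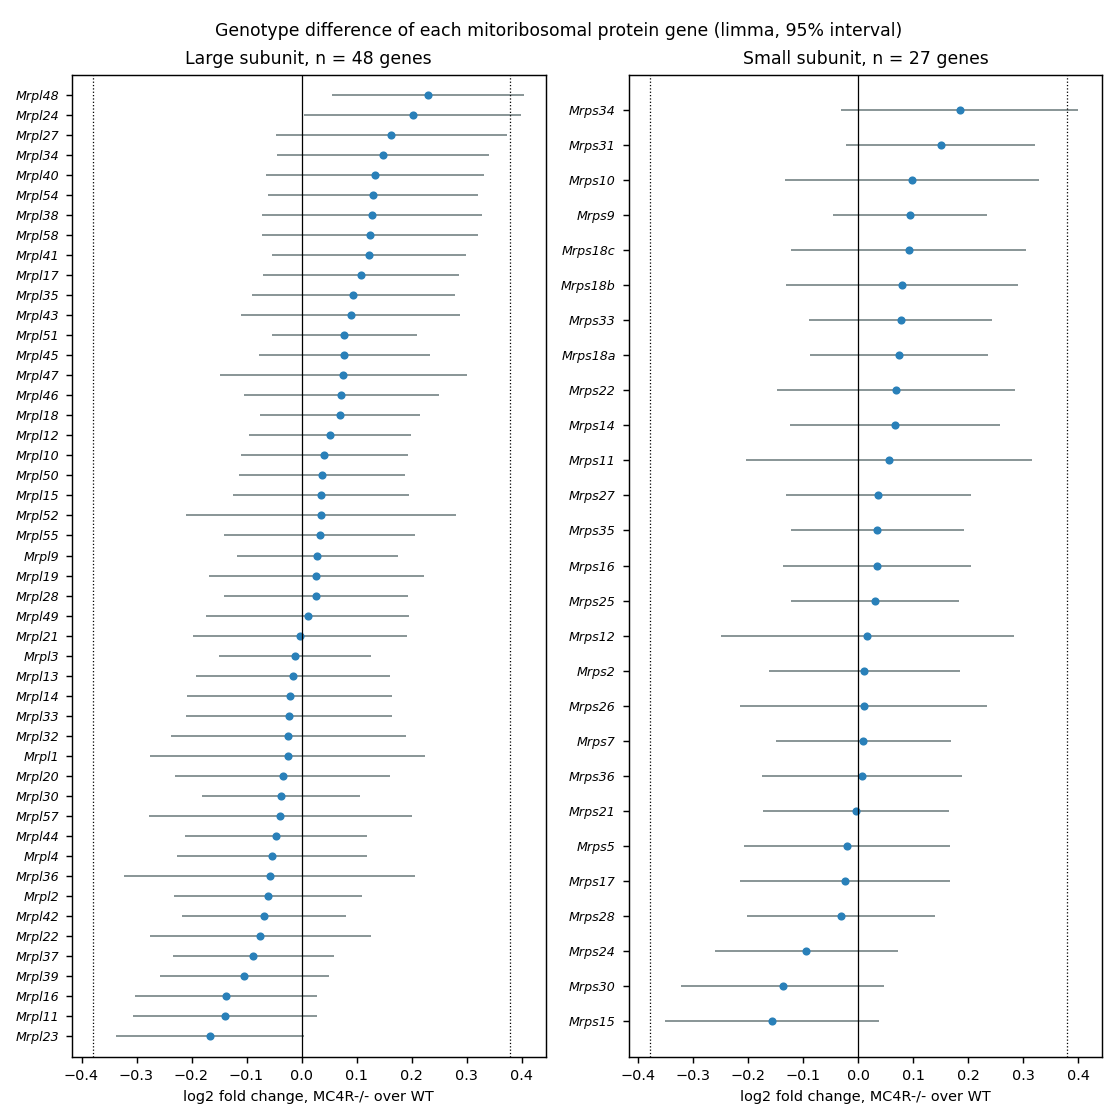
Log2 fold change of each gene, MC4R-/- over WT, with its 95% interval from limma (point and line), in the large subunit (left) and the small subunit (right). Dotted lines mark a 1.3-fold change in either direction. The points run from -0.17 for Mrpl23 to 0.23 for Mrpl48, and the intervals of 73 of the 75 genes include 0.

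Split by number, which follows bacterial nomenclature up to Mrpl36 and Mrps21, the large subunit genes fall into a pair of classes. The 28 large subunit genes with low numbers, mostly relatives of bacterial proteins, had a median log2 fold change of -0.01, with 12 above 0. Without WT replicate 2 and MC4R-/- replicate 5 that median turned to 0.02, with 19 above 0, so its side of 0 rests on those libraries. The 20 with higher numbers, mostly proteins found only in mitochondria, had a median of 0.07, with 15 above 0 (0.09 and 14 without both libraries). In the small subunit both classes had a median of 0.03, with 11 of 15 and 9 of 12 above 0 (medians 0.07 and 0.04 without both libraries, with 13 and 8 above 0). No test of the difference between the classes was made. The split by number is rough, since genes such as Mrpl47 and Mrps24, which do have bacterial relatives, fall in the second class.

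Among large subunit genes Mrpl48 had the smallest p. Mrpl48 encodes a protein of the central protuberance, the crown of the large subunit that faces the small one. The normalized counts of Mrpl48 lay between 265 and 343 in the MC4R-/- libraries (median 288) and were 244, 254, 263 and 246 in the WT libraries. Every MC4R-/- library lay above every WT library, by a narrow margin, a separation that 2.28% of all genes tested showed in one direction or the other. The means were 296 ± 27.2 (SD, n = 6) and 252 ± 8.62 (SD, n = 4), with a log2 fold change of 0.23 (95% interval 0.06 to 0.41) and a limma adjusted p of 0.316. Its lowest adjusted p over 24 alternatives was 0.174.

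Mrpl24, a protein near the exit of the peptide tunnel, had the next smallest p. In Mrpl24 the normalized count ran from 199 to 246 in MC4R-/- (median 223) and was 190.5, 219, 206 and 166 in WT. The groups overlapped, with WT replicate 4 the lowest library of all. The log2 fold change was 0.20 (95% interval 0.0045 to 0.40, limma adjusted p = 0.505). Without WT replicate 4 the log2 fold change was 0.13 (limma adjusted p = 0.759). A stretch of 594 of the 2255 annotated exon bases of Mrpl24 also belongs to Rrnad1 on the opposite strand, and the sources used here do not give the strand setting of the counting.

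Among large subunit genes with values below 0, Mrpl23, another protein at the tunnel exit, had the smallest p. Its normalized count ran from 237 to 285 in MC4R-/- (median 262) and was 292, 326, 281 and 283.5 in WT. The groups met at their edges, since the highest MC4R-/- library lay just above the lower WT libraries. The log2 fold change was -0.17 (95% interval -0.34 to 0.0048, limma adjusted p = 0.541). Mrpl11, at the base of the stalk that recruits translation factors, ran from 247 to 288 in MC4R-/- (median 259) and was 277, 278, 305 and 298 in WT. Its MC4R-/- libraries reached into the WT range, and its log2 fold change was -0.14 (limma adjusted p = 0.631). Mrpl16 (-0.14) and Mrpl39 (-0.10) had the next values below 0, and Mrpl27 (0.16) and Mrpl34 (0.15) the next above, with adjusted p of 0.633, 0.711, 0.660 and 0.667. Without WT replicate 3 the values of Mrpl34 and Mrpl39 were closer to 0, at 0.08 and -0.07.

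**Figure D2:**
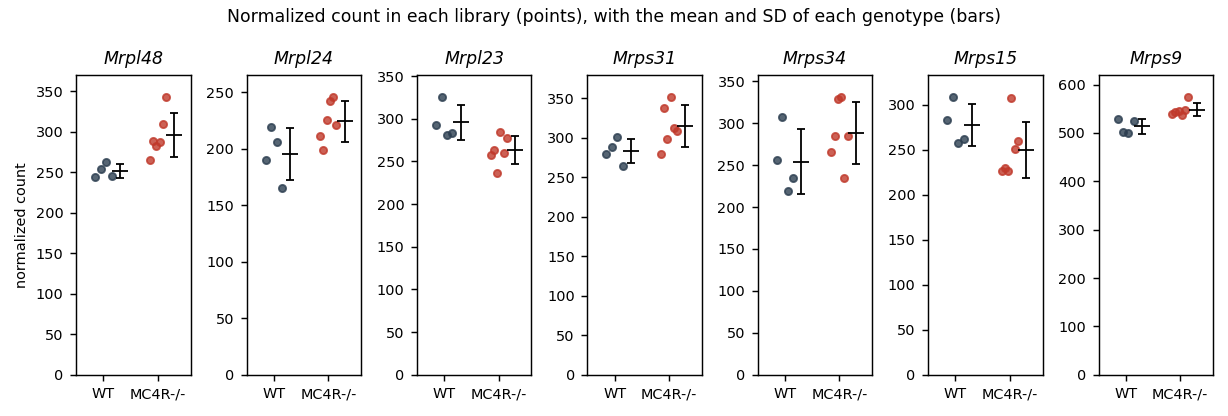
Normalized count in each library for the 3 genes of each subunit with the smallest p and for Mrps9, with WT at the left and MC4R-/- at the right of each panel. Each axis starts at 0, points are libraries, and bars give mean and SD (n = 4 and n = 6). Mrpl48 and Mrps9 have groups that do not overlap, as 2.28% of all genes tested do. In the other 5 panels the groups overlap.

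Genes were also grouped by where their proteins sit in the large subunit, a grouping chosen after the values were seen and therefore only described. The 8 genes taken for the central protuberance (Mrpl18, Mrpl27, Mrpl38, Mrpl40, Mrpl46, Mrpl48, Mrpl52 and Mrpl58) all had log2 fold changes above 0, from 0.03 to 0.23, with a median of 0.13. Of the large subunit 56.2% were above 0, and of all genes tested 48.4%. Of the 8 genes, 7 or 8 stayed above 0 in every alternative setting, and the median ran from 0.09 to 0.17. These settings reuse the same libraries. None of the 8 passed the test on its own, and Mrpl58, a peptidyl-tRNA hydrolase that rescues stalled ribosomes, had means of 201 ± 22.1 (SD, n = 6) and 183 ± 5.42 (SD, n = 4). The 8 genes at the peptide exit (Mrpl17, Mrpl22, Mrpl23, Mrpl24, Mrpl39, Mrpl44, Mrpl45 and Mrpl47) were evenly split, with 4 above 0 and a median of 0.01 (3 and -0.01 without WT replicate 2 and MC4R-/- replicate 5). In the stalk, Mrpl10 (0.04) and Mrpl12 (0.05) were close to 0 and Mrpl11 was at -0.14.

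In the small subunit the first gene by p was Mrps31. Normalized counts of Mrps31 ran from 279 to 352 in MC4R-/- (median 311) and were 279, 288, 300.4 and 264 in WT. The lowest MC4R-/- library lay inside the WT range. The log2 fold change was 0.15 (95% interval -0.02 to 0.32, limma adjusted p = 0.611).

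Mrps34, a protein specific to the mitochondrial small subunit, had the highest fold change there. Its normalized count ran from 235 to 332 in MC4R-/- (median 285) and was 256, 308, 219 and 234 in WT. Both groups were wide and overlapped, and MC4R-/- replicate 5 was the low library of its group while WT replicate 2 was the high one. The log2 fold change was 0.18 (95% interval -0.03 to 0.40, limma adjusted p = 0.618). Without those 2 libraries it was 0.34 with a limma adjusted p of 0.0977, the lowest for any member in any setting. Without WT replicate 2 alone it was 0.28 (adjusted p = 0.293), and without WT replicate 3 alone 0.12 (adjusted p = 0.785). Of its 2064 annotated exon bases, 763 also belong to Nme3 on the same strand and 1309 to Mapk8ip3 on the opposite strand, so its reads cannot be assigned to it with certainty.

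Mrps9 was the most even member. Its normalized count ran from 538 to 575 in MC4R-/- (median 545) and was 529, 501, 499.8 and 524 in WT. Every MC4R-/- library lay above every WT library, a separation shown by 2 of the 75 members and by 2.28% of all genes tested. The means were 548 ± 13.7 (SD, n = 6) and 513 ± 15.2 (SD, n = 4), and the log2 fold change was 0.09 (95% interval -0.05 to 0.23, limma adjusted p = 0.715). The spread within groups was 2.67% of the mean, less than the 4.3% that counting alone gives at this depth.

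Below 0, Mrps15 ran from 226 to 307 in MC4R-/- (median 239.8) and was 283, 309, 257.5 and 261 in WT. A single MC4R-/- library, replicate 4, stood at the top of its group near the highest WT library, and the log2 fold change was -0.16 (95% interval -0.35 to 0.04, limma adjusted p = 0.644). The log2 fold changes were -0.14 for Mrps30 (limma adjusted p = 0.681), -0.09 for Mrps24 and -0.03 for Mrps28, with overlapping groups in each. Without WT replicate 3 that of Mrps30 was -0.07. Mrps33 stood at 0.08. In structures the proteins of Mrps30 and Mrps18a are part of the large subunit in spite of their names, and the protein of Mrps36 is known as a component of the 2-oxoglutarate dehydrogenase complex. Moving the first pair to the large subunit and leaving out Mrps36 left the count of called genes at 0 in both.

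Levels per transcript length spread widely within a subunit although the proteins form 1 particle. Normalized counts divided by transcript length ranged 67.8-fold in the large subunit, from 36.9 per kb for Mrpl17 to 2497 per kb for Mrpl42, with a median of 249. In the small subunit they ranged 21.1-fold, from 40.3 for Mrps26 to 851 for Mrps21, with a median of 199. After Mrpl42 came Mrpl30 (852) and Mrpl12 (801), the gene of a stalk protein that also binds the mitochondrial RNA polymerase, and in MC4R-/- these last 2 lay within each other's SD (844 ± 60.03 and 813 ± 61.8, n = 6), while in WT they were further apart (864 ± 22.4 and 783 ± 51.6, n = 4). In the small subunit Mrps36 (614) and Mrps33 (472) followed Mrps21.

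The order of levels rests in part on the transcript models. Mrpl17 was scaled with a transcript of 7300 bases, while its protein-coding GENCODE transcripts run from 380 bases upward, and at the shortest its level would be 708 per kb. For Mrps5 (61.5 per kb at 4481 bases) the shortest gives 650.1 per kb. Mrpl30 (852 per kb at 969 bases) has 5 protein-coding models of 501 to 1757 bases, which give 1648 to 470 per kb. Its place after Mrpl42 and its distance from Mrpl12 therefore depend on the model. Mrpl42 was at 2497 per kb with the longest of its protein-coding transcripts, so its first place in the large subunit does not depend on this choice among its own models. Mrpl47 (40.6 per kb at 3364 bases) and Mrps26 (40.3 at 4278 bases) have 1 protein-coding GENCODE model each. The RefSeq gene Mrps26 spans chr2:130563757-130565394, fewer bases than that transcript. Its level per kb, its last place and the lower end of the small subunit range therefore rest on the model used.

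The order of the genes was nearly the same in both genotypes. Across genes, Spearman's rho between the mean levels per kb in MC4R-/- and WT was 0.991 in the large and 0.999 in the small subunit, a description over genes that share libraries and lengths. Mrpl42 stood at 2449 ± 177 per kb (SD, n = 6) in MC4R-/- and 2571 ± 262 (SD, n = 4) in WT. Mrps21 stood at 849.6 ± 63.0 and 852 ± 65.2. Both differences were smaller than the SD of either group.

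**Figure D3:**
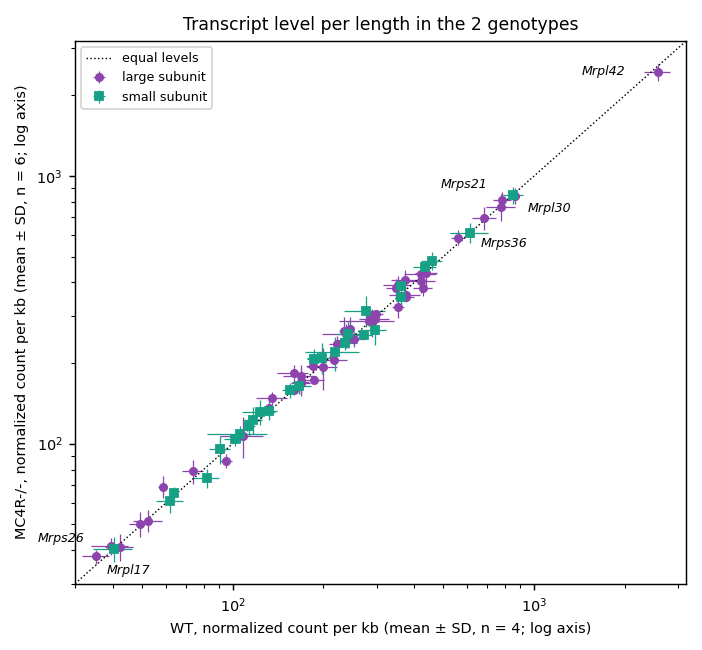
Mean level of each gene per kb of transcript in WT (horizontal) and MC4R-/- (vertical), both on log axes, with SD bars (n = 4 and n = 6). Circles are large subunit and squares small subunit genes, and the dotted line marks equal levels. The genes lie along the line from Mrpl17 (36.9 per kb) to Mrpl42 (2497 per kb).

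The MC4R-/- libraries spanned a wider range than the WT libraries, but there were more of them, and a range tends to widen with the number of libraries. Whether the spread differed between the genotypes was not tested. For each library the median log2 deviation of the subunit's genes from their 10-library means was taken. In the large subunit it was highest in MC4R-/- replicate 4 (0.08) and lowest in MC4R-/- replicate 5 (-0.08), and the 4 WT libraries lay between, from -0.05 to 0.02. In the small subunit the same libraries were at the ends, with 0.11 and -0.05, and WT ran from -0.04 to 0.02. In MC4R-/- replicate 4, 34 of 48 large and 21 of 27 small subunit genes were above their own means, and in replicate 5 only 11 and 8 were. Over the 6761 tested genes at or above the lowest member the same measure stayed between -0.01 and 0.02 in every library. The scaling of each library largely fixes a median over so many genes, so it is no yardstick for sets of 48 or 27 genes. MC4R-/- replicate 5 is the library with the high atrial transcripts, and the part of these in its low values was not tested.

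**Figure D4:**
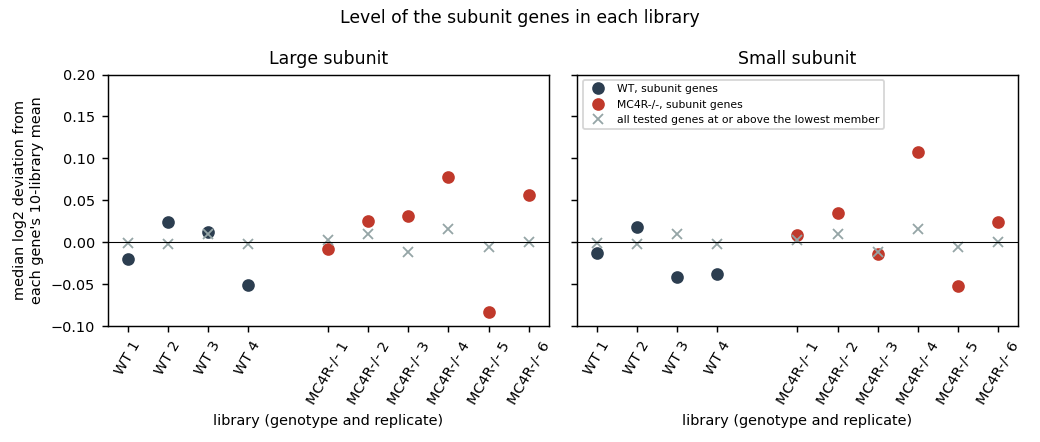
Median log2 deviation of the large subunit genes (left) and small subunit genes (right) from each gene's mean over the 10 libraries, by library (circles), beside the same measure for the 6761 tested genes at or above the lowest member (crosses). MC4R-/- replicates 4 and 5 form the ends in both panels, and the WT libraries lie between them. The scaling of each library largely fixes the crosses.

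Large subunit genes took 0.311 to 0.342% of the reads of a library and small subunit genes 0.130 to 0.142%. The mean shares were 0.331 ± 0.0118% (SD, n = 6) in MC4R-/- and 0.326 ± 0.00381% (SD, n = 4) in WT for the large subunit, and 0.137 ± 0.0033% and 0.133 ± 0.00206% for the small. The ratio of summed normalized counts, large over small, was 2.43 ± 0.0459 (SD, n = 6) and 2.45 ± 0.0508 (SD, n = 4). The ratios differed by less than the SD of either group. Both shares had the higher mean in MC4R-/-, and the groups overlapped. The difference was less than the MC4R-/- SD for the large subunit and more than either SD for the small subunit. For the large subunit the WT libraries (0.321 to 0.329%) lay inside the MC4R-/- range, and for the small subunit MC4R-/- ran from 0.132 to 0.142% and WT from 0.130 to 0.135%.

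The spread of single genes between libraries of a genotype was moderate. The median coefficient of variation within groups was 8.48% in the large and 7.78% in the small subunit, where counting error at the recovered depth gives 5.89 and 5.98%. It was more than 2 times the counting error for 11 genes and within it for 9. The widest were Mrps12, Mrpl1 and Mrpl36, with 16.9, 16.9 and 15.6%. Mrpl42, the most abundant member, varied by 8.54% against a counting error of 2.45%, the highest ratio of all 75 (3.49).

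Genes known from inherited cardiomyopathy were named for that reason after their values were seen. Mrpl3, a core protein of the large subunit, had means of 628 ± 25.6 (SD, n = 6) and 633 ± 13.3 (SD, n = 4), with a 95% interval of -0.15 to 0.13 for its log2 fold change. Mrpl44, an RNase III-like protein at the peptide exit, stood at -0.05 (95% interval -0.21 to 0.12). Mrps14 and Mrps22 stood at 0.07 and 0.07, with intervals of -0.12 to 0.26 and -0.15 to 0.29. Each of the 4 intervals holds 0 and ends within a 1.3-fold change.

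Some members share sequence with other genes. RefSeq names pseudogenes for Mrpl23, Mrpl27, Mrpl48 and Mrps36, and reads of near-identical copies could have been split between them, so these values are uncertain to that extent. Annotated exons of Mrps25 share 4590 of 6576 bases with Nr2c2 and those of Mrpl48 share 708 of 8152 with Rab6a, each on the opposite strand. The 3 joined rows, which hold Mrps23, Mrpl53 and Mrps6 together with other genes, had log2 fold changes of 0.03, 0.04 and -0.02.

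The other genes of mitochondrial translation were read from lists of the pathway. Of 5 ribosomal proteins with other kinds of names (Dap3, Ptcd3, Gadd45gip1, Aurkaip1 and Chchd1) 0 were called, and Gadd45gip1 had the largest log2 fold change, 0.14. Of 28 assembly factors and rRNA-modifying enzymes 0 were called, with a median of 0.03, and 2 had an unadjusted p under 0.05. These were Mettl15, a methyltransferase of the small subunit rRNA (log2 fold change -0.32, limma adjusted p = 0.486), and Trub2, a pseudouridine synthase (0.22, adjusted p = 0.501). Of 19 translation factors and 17 mitochondrial aminoacyl-tRNA synthetases 0 were called, with medians of -0.01 and -0.05. Ears2, the glutamyl-tRNA synthetase, had means of 81.6 ± 10.6 (SD, n = 6) and 96.8 ± 9.27 (SD, n = 4), with a limma adjusted p of 0.553. Of 10 genes for mitochondrial DNA transcription and upkeep 0 were called, and Tfam, which packages that DNA, stood at 0.12 (adjusted p = 0.738). In each of these 5 lists edgeR and DESeq2 also called 0 genes, and apart from the assembly list none had a gene with an unadjusted limma p under 0.05.

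Of 10 transcriptional regulators of mitochondrial genes 1 was called, against 0.459% of all genes tested. Ppargc1a, the coactivator PGC-1α that drives expression of genes for mitochondrial proteins, fell by 0.54 ± 0.0727 (SE) on the log2 scale (limma adjusted p = 0.000316). Normalized counts of Ppargc1a ran from 653 to 860.0 in MC4R-/- (median 750.0) and were 1072, 1094, 1112 and 1097 in WT. The groups did not overlap, as in 2.28% of all genes tested. Without the trend and robust steps the limma adjusted p of Ppargc1a was 0.167, as no gene at all was called in that setting. Of the other regulators 9 were not called, Yy1 (-0.12, adjusted p = 0.754) and Gabpb2, a partner of GABPA (-0.13, adjusted p = 0.706), among them.

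Other cell types of the ventricle were followed by their markers. The summed normalized count of 4 fibroblast markers ran from 4981 to 5719 in MC4R-/- and from 4338 to 5161 in WT. Of these markers 1, Lum, was called higher, as 0.287% of all genes tested were. The summed count of 5 macrophage markers ran from 1020.1 to 1298 and from 781 to 1022. Among them C1qa (log2 fold change 0.42) and C1qb (0.47) had an unadjusted limma p under 0.05, as 9.6% of all genes tested did. Their limma adjusted p were 0.0951 and 0.105. Cd68 (0.14), Csf1r (0.14) and Adgre1 (-0.03) had limma adjusted p of 0.833, 0.675 and 0.965. DESeq2 called 1 of the 5 markers, against 0.808% of all genes tested. Sums of 5 endothelial markers overlapped, from 4831 to 5826 and from 4911 to 5528. Their part in the values of the ribosomal protein genes was not tested.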

How the data were processed

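Polyadenylated RNA was sequenced in 6 MC4R-/- and 4 WT left ventricle libraries, grouped by sample title. Cuffnorm 2.2.1.1, Cufflinks 2.2.1, Cuffdiff 2.2.1.3, Bowtie2, TopHat2 2.1.0 and bcl2fastq are listed, per the submitters' processing notes, beside build mm10. Their roles, the annotation and the strand setting are not given in the sources used here, while the labels' protocols name a stranded KAPA kit. The deposited signal values are gene read counts scaled by 1 factor per library, not by gene length, and are called normalized counts here. In each library 99.99 to 100% of values above 0 lay within 0.1 of a whole multiple of the value of 1 read. All 10 columns were used.

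Of 24160 rows, 23649 carried accessions of 1 symbol in the RefSeq gene table, 335 of several and 176 of none. The genotypes were set against each other in limma 3.58.1 (R 4.3.3) on log2(normalized count + 1), using lmFit and eBayes (trend, robust) with no covariates, over genes with a mean of at least 1. The p-values were two-sided and Benjamini-Hochberg adjusted. This scale understates the change of low genes. Alternatives used edgeR 4.0.16 and DESeq2 1.42.0 on the recovered reads, other scalings, filters and pseudocounts, a replicate block, and left-out libraries. Transcript lengths are from GENCODE vM21. On simulated data for the same comparison over 14611 genes the test found 52% of 1.3-fold, 84% of 1.5-fold and 100% of 2- and 3-fold changes. The simulation changed 50 genes at each fold size, all with a mean of at least 50, and drew genes independently. It held no shifts shared by many genes of a library, so its shares may not hold for the real comparison. Of the calls over all 14611 genes, at any mean, 8.7% were false.

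Members and gene lists were chosen with earlier results of these data known. Named members are those called, those whose groups do not overlap, up to 4 higher and 4 lower per subunit by p, and the 3 highest and 2 lowest per subunit by level per kb. Of each other list up to 3 genes with the smallest p could be named. The design had allowed for length-scaled values, and its test on log2 values was kept.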

Additional observations from a re-analysis of the deposited data

Results flagged for a closer look

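For the 25 named members and the summed counts of both subunits, 54 groups of values in all were examined for a library that stands far from the rest of its genotype, and 3 were found, all in single genes, where chance gives about 1 in 20. Mrps9 in MC4R-/- replicate 6 had a normalized count of 574.7, the highest of its group, with a gap to the next library of 0.728 of the range. Mrpl39 in MC4R-/- replicate 4 had 421, the highest, with a gap of 0.629. Mrpl27 in MC4R-/- replicate 5, the library high in atrial transcripts, had 151, the lowest, with a gap of 0.7. Over all 75 members 7 of 150 groups of values were of this kind.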

How the results depend on the processing

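No member was called in any of 24 alternatives, and the medians of both subunits stayed above 0, from 0.01 to 0.06 (large) and 0.02 to 0.06 (small). The number of genes called among all tested, 67, moved more. It was 118 with DESeq2, 118 with library weights, 105 with GC and length trends removed, 167 without WT replicate 2 and MC4R-/- replicate 5, and 0 by limma run with neither trend nor robust step (1290 at an unadjusted p under 0.05, with 118 by DESeq2 and 50 by edgeR). Leaving out 1 library gave 26 (without WT replicate 4) to 118 (without WT replicate 2), with 37, 29, 44 and 31 without MC4R-/- replicates 1, 2 and 3 and WT replicate 3. The cause was not tested. Replicate numbers shared by the genotypes did not pair libraries (r between same-numbered libraries -0.125, -0.152, -0.277 and -0.0750), and none of the 8 libraries concerned correlated best with its own number. With a replicate block 52 genes were called, 0 of them members. Directions reversed in 28 of 600 pairs of named member and setting, all in 6 genes. The log2 fold changes of these genes over all 10 libraries ran from -0.07 (Mrpl42) to 0.08 (Mrpl47). Mrpl47 was at -0.00295 and Mrps5 at 0.006 without WT replicate 2 and MC4R-/- replicate 5. Mrps21 was at 0.000395 (DESeq2), 0.000517 (edgeR), 0.0279 (library weights) and 0.00618 (quantile normalization). Mrps26 was at -0.0040 (DESeq2) and -0.00411 (edgeR). Mrps36 was at -0.0180 (GC and length trends removed), -0.00773 (replicate block) and -0.0185 (without both libraries). Leaving out 1 library gave -0.11 to 0.00103 for Mrpl42, -0.00513 to 0.15 for Mrpl47, -0.0686 to 0.0425 for Mrps5, -0.0465 to 0.0353 for Mrps21, -0.0765 to 0.0905 for Mrps26 and -0.0381 to 0.103 for Mrps36. Settings with both libraries left out, GC and length removal and the moved subunit names were chosen after the data were seen. The width of each member's interval reflects the spread between libraries as well as depth, at a mean of 114.9 to 1667.8 reads per library.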
